A study of Mus musculus with 20 samples.

Results

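Of the 32 mouse genes of cholesterol synthesis, uptake, sensing and efflux considered here, 31 were found among the 47069 genes of the count table, by taking the rows whose Ensembl identifier carried the gene's symbol in the accompanying FPKM table. The remaining gene, Sqle, had a row of counts under the identifier that GENCODE M21 gives it but no row in the FPKM table, so its values are given separately and it is counted among no members. The libraries were made from CD138+ IgA+ plasma cells (IgA+ PC) isolated by flow sorting of small intestinal tissue, and the donors were C57BL/6 mice of wild type genotype, with no treatment, and poly-A RNA was sequenced. There were 20 libraries, each from 1 animal, with 5 animals at each of Zeitgeber times ZT0, ZT6, ZT12 and ZT18, where ZT0 marks lights on and ZT12 lights off. The question put to these cells was which transcripts varied over the circadian day, and here it is asked of genes that make cholesterol and genes that export it. All animals shared genotype and strain, every time point came from different animals, and the sources used here do not give their ages.

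Cells make cholesterol from acetyl-CoA through the mevalonate pathway and then through squalene and a chain of sterol intermediates. When the membrane of the endoplasmic reticulum is low in sterols, the escort protein SCAP carries the transcription factor SREBP2 to the Golgi, where it is cut and freed to switch on the enzymes and sterol uptake, while INSIG proteins hold SCAP back when sterols are plentiful. In the opposite direction, oxysterols activate the liver X receptors (LXR), which switch on the exporters ABCA1 and ABCG1 and the ubiquitin ligase MYLIP, which sends lipoprotein receptors for degradation. Plasma cells carry an expanded endoplasmic reticulum for antibody secretion, so that the membrane in which sterols are sensed is large in them.

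Over the day, most enzymes of synthesis ran opposite to Abca1 and Mylip, 2 of the 3 LXR-driven genes among the members. Of the 31 members, 18 differed between at least some of the 4 times (edgeR quasi-likelihood F test, Benjamini-Hochberg adjusted p under 0.01 over all 13967 genes tested), against 19.5% of all genes tested. Among the 18 enzymes of synthesis, 12 were called, and all 12 were highest at ZT18 (8 genes) or ZT0 (4 genes) and lowest at ZT6 (8 genes) or ZT12 (4 genes). The 2 called LXR-driven genes, Abca1 and Mylip, were both highest at ZT12, Abca1 lowest at ZT0 and Mylip at ZT18. The study had itself picked out the mevalonate pathway and cholesterol biosynthesis from these libraries, so the count of enzymes is no independent evidence. In RNA from sorted bulk cells, fewer cells of a type and less RNA per cell cannot be told apart.

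From mid-light to mid-dark, ZT18 against ZT6, 14 members were higher and 2 were lower, where 4.05% of all genes tested were called higher and 4.20% lower. The 14 were 11 enzymes of synthesis together with Srebf2, Insig1 and Stard4, and the 2 that were lower were Scap and Mylip. In each of these 16 genes the 5 libraries at ZT18 did not overlap the 5 at ZT6, which held for 5.75% of all genes in each direction. Between the other 2 times, ZT12 against ZT0, 7 members were lower and 1, Mylip, was higher, against 1.90% and 1.96% of all genes. The 7 were Srebf2 and 6 enzymes, namely Fdft1, Lss, Cyp51, Tm7sf2, Msmo1 and Nsdhl. The libraries of ZT12 and ZT0 did not overlap in 7 lower members and 1 higher, Mylip (3.25% and 3.98% of all genes). These 7 included Hsd17b7 and Sc5d, which were not called, while Fdft1 and Msmo1 were called and overlapped. This second count moved with the scaling: with library totals in place of TMM factors 17 members were lower and Mylip was no longer called higher (edgeR adjusted p = 0.0133), while the median log2 change of all genes shifted from 0.00 to -0.17.

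**Figure D1:**
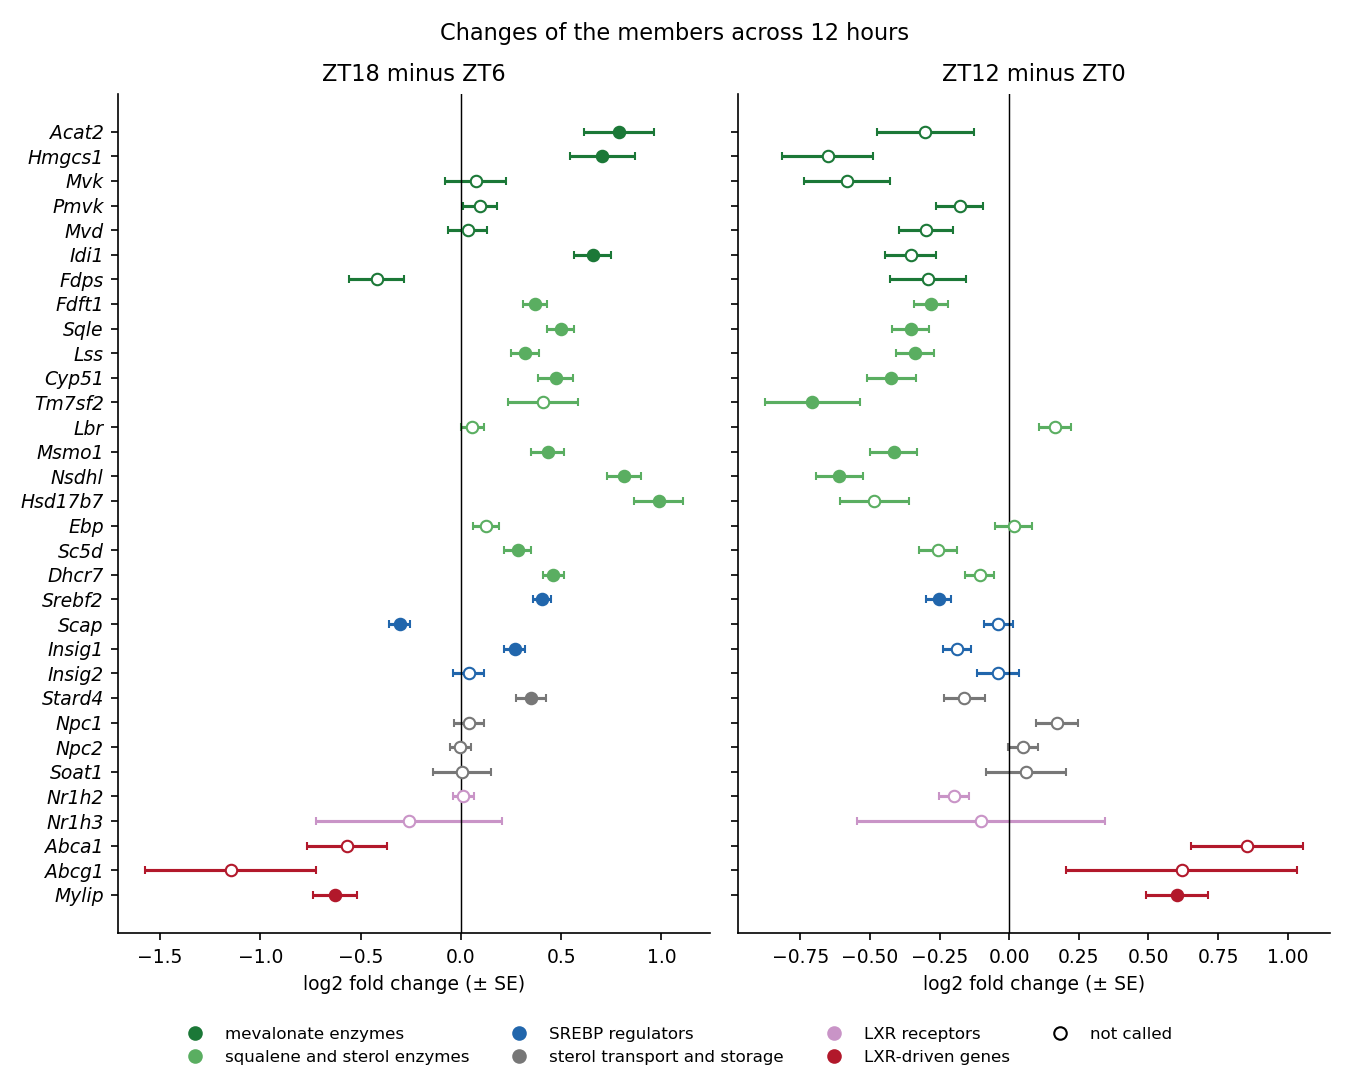
Log2 fold change (± SE, edgeR) of the 31 members and Sqle between ZT18 and ZT6 (left) and between ZT12 and ZT0 (right), with filled points for adjusted p under 0.01 and colours for roles. Most enzymes lie right of 0 on the left and left of 0 on the right, and Abca1, Abcg1 and Mylip lie on the other side in both.

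The mevalonate enzymes turn acetyl-CoA into the isoprenoid units of sterols, and 3 of the 7 changed over the day. Hmgcs1, the synthase that makes HMG-CoA, gave 139.8, 185, 169, 146 and 107 CPM at ZT0, 67.1, 98.7, 68.7, 98.0 and 73.5 CPM at ZT6, 108, 98.6, 84.1, 70.7 and 114 CPM at ZT12 and 129, 119.7, 116, 154 and 143 CPM at ZT18. Every ZT18 library lay above every ZT6 library, and ZT0 and ZT12 met, the lowest ZT0 library falling below the highest 2 at ZT12. The mean was 81.2 ± 15.8 CPM at ZT6 and 132 ± 15.96 at ZT18 (SD, n = 5), a log2 fold change of 0.71 ± 0.16 (SE, edgeR adjusted p = 0.00742). That call was lost when any of 9 libraries was left out (ZT0 replicate 4, ZT6 replicates 1, 3 and 5, ZT12 replicate 2 and ZT18 replicates 1, 2, 4 and 5), with adjusted p from 0.0103 to 0.0239 in the same edgeR test. It was also lost with library totals (edgeR adjusted p = 0.0112), no filter (0.0135) and the replicate block (0.0166). Leaving out the 3 libraries highest in epithelial markers (0.0108) or in heat shock (0.0107) ended it too. The call of Hmgcs1 over the 4 times (edgeR adjusted p = 0.00162) was kept in each of 30 fits.

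Idi1, the isomerase that interconverts the isoprenoid building blocks, had levels of 18.5, 21.3, 20.6, 20.3 and 17.6 CPM in the ZT0 animals, 12.9, 18.2, 13.1, 15.1 and 14.4 at ZT6, 19.1, 15.04, 14.9, 12.4 and 15.6 at ZT12 and 22.9, 23.2, 21.4, 24.4 and 24.4 at ZT18. The ZT18 libraries stood above all 15 others. Idi1 had a log2 change from ZT6 to ZT18 of 0.66 ± 0.09 (SE, edgeR adjusted p = 5.16e-06), and it fell again after dawn, with a log2 change from ZT0 to ZT6 of -0.41 ± 0.09 (SE, edgeR adjusted p = 0.00167). Acat2, the cytosolic thiolase of the first step, read 4.44, 3.49, 4.21, 4.92 and 4.53 CPM in the 5 ZT0 libraries, 1.64, 4.01, 3.24, 2.78 and 3.32 at ZT6, 4.20, 2.81, 2.80, 4.10 and 3.53 at ZT12 and 5.41, 4.55, 6.82, 4.34 and 4.80 at ZT18. ZT18 and ZT6 did not overlap, the ZT6 libraries including the lowest value of the series in replicate 1. From ZT6 to ZT18 the log2 change of Acat2 was 0.79 ± 0.17 (SE, edgeR adjusted p = 0.00162). Its call over the 4 times (edgeR adjusted p = 0.00291) was lost without ZT18 replicate 3 (adjusted p = 0.0139), the library with its highest value, with limma on FPKM (0.0135) and without the 3 libraries highest in epithelial markers (0.0445). The last 2 settings also ended its call from ZT6 to ZT18 (adjusted p = 0.0173 and 0.0221). Acat2 shares 445 transcript bases at 98.7% identity with Tcp1, which had more counts (means of 1799 and 175 per library).

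The kinases Mvk and Pmvk and the decarboxylase Mvd, which act between the reductase step and Idi1, were not called at any time, and neither was the farnesyl diphosphate synthase Fdps. Mvk averaged 3.80 ± 0.831 CPM (SD, n = 5) at ZT12, below its 5.69 ± 0.84 CPM at ZT0, with a log2 change from ZT0 to ZT12 of -0.58 ± 0.15 (SE, edgeR adjusted p = 0.0135). Pmvk ranged only from 11.2 to 15.03 CPM over the 20 libraries, and Mvd from 8.77 to 14.8 CPM. Fdps ran against the other enzymes, at 5.60 ± 0.983 CPM at ZT6 and 4.18 ± 0.43 at ZT18 (SD, n = 5), with a log2 change from ZT6 to ZT18 of -0.42 ± 0.14 (SE, edgeR adjusted p = 0.0339). Its counts are uncertain, since the processed pseudogene Gm3571 is 98.9% identical to it over 1062 bases and drew as many counts (means of 237 and 217 per library). Gm3571 averaged 6.65 CPM at ZT18 and 4.38 at ZT6. Fdps, Gm3571 and the copy Gm5873 summed to 12.7 ± 1.48, 10.9 ± 1.18, 9.38 ± 1.03 and 12.1 ± 1.04 CPM at ZT0, ZT6, ZT12 and ZT18 (SD, n = 5). The mean sum was lower at ZT6 and ZT12 than at ZT0 and ZT18, unlike the row counted as Fdps alone. Between ZT6 and ZT18 the sums differed by about their spread, and the sum was not tested.

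The squalene and sterol enzymes close the rings of squalene and trim the product to cholesterol, and 9 of the 11 changed over the day. Nsdhl, a dehydrogenase that helps to strip methyl groups from the sterol, gave 16.7, 18.5, 20.6, 19.3 and 20.4 CPM at ZT0, 11.5, 10.5, 10.2, 12.8 and 12.6 CPM at ZT6, 12.5, 10.9, 13.3, 11.2 and 14.6 CPM at ZT12 and 20.2, 22.1, 19.9, 19.8 and 19.4 CPM at ZT18. All 10 libraries of ZT0 and ZT18 lay above all 10 of ZT6 and ZT12. The log2 change of Nsdhl from ZT6 to ZT18 was 0.81 ± 0.08 (SE, edgeR adjusted p = 1.69e-08) and that from ZT0 to ZT12 was -0.61 ± 0.08 (SE, edgeR adjusted p = 3.67e-06).

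Hsd17b7, the ketoreductase that works on the same methyl groups, had levels of 9.33, 9.64, 10.5, 7.79 and 7.87 CPM in the ZT0 animals, 5.61, 8.50, 5.75, 6.77 and 5.86 at ZT6, 7.27, 7.29, 6.27, 5.21 and 6.37 at ZT12 and 11.8, 9.98, 13.3, 15.1 and 14.4 at ZT18. ZT18 lay above ZT6 and ZT12 with no overlap, and ZT0 stood between, above all of ZT12. Its rise from ZT6 to ZT18 was the steepest of the 31 members, a mean of 6.50 ± 1.21 against 12.9 ± 2.06 CPM (SD, n = 5), a log2 fold change of 0.99 ± 0.12 (SE, edgeR adjusted p = 9.18e-07). Dhcr7, the reductase of the last step, read 35.02, 40.2, 39.0, 41.4 and 40.6 CPM in the 5 ZT0 libraries, 34.8, 35.4, 32.9, 34.7 and 34.3 at ZT6, 36.9, 36.0, 35.2, 34.5 and 39.6 at ZT12 and 47.5, 48.2, 45.4, 50.7 and 45.1 at ZT18. The ZT18 libraries were above the other 15, and levels fell again by dawn, with a log2 change from ZT18 to ZT0 of -0.27 ± 0.05 (SE, edgeR adjusted p = 0.000467). Dhcr7 had a log2 change from ZT6 to ZT18 of 0.46 ± 0.05 (SE, edgeR adjusted p = 1.36e-07), while ZT12 and ZT0 overlapped, with a log2 change from ZT0 to ZT12 of -0.11 ± 0.05 (SE, edgeR adjusted p = 0.239).

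Fdft1, the squalene synthase at which sterols part from other isoprenoids, gave 32.7, 40.2, 38.3, 43.4 and 39.7 CPM at ZT0, 34.8, 33.2, 33.8, 36.7 and 33.1 CPM at ZT6, 32.1, 32.8, 31.0, 28.8 and 35.3 CPM at ZT12 and 45.2, 44.4, 43.7, 45.3 and 43.3 CPM at ZT18. ZT18 was above ZT6 and ZT12 in every library, and its lowest library met the highest of ZT0. From ZT6 to ZT18 the log2 change of Fdft1 was 0.37 ± 0.06 (SE, edgeR adjusted p = 3.58e-05) and that from ZT0 to ZT12 was -0.28 ± 0.06 (SE, edgeR adjusted p = 0.00192). The second of these calls was lost without ZT0 replicate 4 or ZT12 replicate 4 (adjusted p from 0.0109 to 0.0147). Fdft1 shares 774 transcript bases with Ctsb on the opposite strand, whose counts were higher (means of 12322 and 1628 per library), and the sources used here do not say whether counting used strand.

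Sqle, the squalene epoxidase counted outside the 31, had levels of 63.9, 69.5, 63.2, 61.2 and 65.6 CPM in the ZT0 animals, 47.1, 59.8, 51.5, 57.5 and 48.2 at ZT6, 53.0, 54.0, 49.0, 44.2 and 52.9 at ZT12 and 69.8, 69.9, 73.6, 85.6 and 73.8 at ZT18. Its ZT18 libraries lay above those of ZT0, and those of ZT0 above all of ZT6 and ZT12. The log2 change of Sqle from ZT6 to ZT18 was 0.50 ± 0.07 (SE, edgeR adjusted p = 2.42e-06) and that from ZT0 to ZT12 was -0.35 ± 0.07 (SE, edgeR adjusted p = 0.000472), the latter lost without the 3 libraries highest in macrophage markers (adjusted p = 0.0216).

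The other 5 called enzymes of this stage were Lss (lanosterol synthase), Cyp51 (lanosterol demethylase), Msmo1 (methyl sterol oxidase), Sc5d (a sterol desaturase) and Tm7sf2 (a sterol reductase). Lss averaged 24.7 CPM at ZT0 and 17.6 at ZT6, with a log2 change from ZT0 to ZT6 of -0.49 ± 0.07 (SE, edgeR adjusted p = 3.97e-06). Cyp51 averaged 88.9 CPM at ZT18 and 64.1 at ZT6, with a log2 change from ZT6 to ZT18 of 0.47 ± 0.09 (SE, edgeR adjusted p = 0.000751). Msmo1 was nearly level between ZT0 and ZT18 (39.9 and 39.2 CPM) and lower at ZT6 (29.1 CPM), with a log2 change from ZT6 to ZT18 of 0.43 ± 0.08 (SE, edgeR adjusted p = 0.000806). Sc5d rose by less, with a log2 change from ZT6 to ZT18 of 0.28 ± 0.07 (SE, edgeR adjusted p = 0.00385), and that call was lost without any of 6 libraries (ZT6 replicates 1, 2, 3 and 4 and ZT18 replicates 4 and 5; adjusted p from 0.0104 to 0.0203). Tm7sf2 was highest at ZT0, and its ZT12 libraries lay below them without overlap, with a log2 change from ZT0 to ZT12 of -0.71 ± 0.17 (SE, edgeR adjusted p = 0.00666). This call was lost without any of 7 libraries (ZT0 replicates 3, 4 and 5 and ZT12 replicates 1, 3, 4 and 5; adjusted p from 0.0134 to 0.0245), that of Cyp51 in the same comparison without ZT0 replicate 4 or 5 or ZT12 replicate 3 or 5 (adjusted p from 0.0123 to 0.0158), and that of Msmo1 without ZT0 replicate 3 (adjusted p = 0.0105). Without the 3 libraries highest in macrophage markers these genes and Lss were not called there (adjusted p from 0.0245 for Lss to 0.111 for Tm7sf2), and Tm7sf2 also lost its call over the 4 times (0.0402). From ZT0 to ZT12 the replicate block ended the calls of Cyp51 (edgeR adjusted p = 0.0136), Tm7sf2 (0.0101) and Msmo1 (0.0108). Leaving out the 3 libraries highest in heat shock did so for Lss (0.0186), Cyp51 (0.0189) and Tm7sf2 (0.0604), and those highest in epithelial markers for Msmo1 (0.012). From ZT6 to ZT18, library totals and limma on FPKM ended the calls of Lss (adjusted p = 0.0153 and 0.0126) and Sc5d (0.0159 and 0.0279). Cyp51 overlaps Akap9 and Npc1 overlaps Rmc1 on the opposite strand. Tm7sf2 shares 532 transcript bases with Vps51 on the same strand, which had more counts (means of 749 and 154 per library).

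Lbr, which is both a sterol reductase and the lamin B receptor of the nuclear envelope, and the isomerase Ebp were the 2 enzymes of this stage with no call. Lbr ran from 41.7 to 56.3 CPM, with a log2 change from ZT0 to ZT12 of 0.16 ± 0.06 (SE, edgeR adjusted p = 0.062). Ebp kept between 22.6 and 30.4 CPM, with a log2 change from ZT6 to ZT18 of 0.12 ± 0.07 (SE, edgeR adjusted p = 0.221). The median log2 change of the 18 enzymes was 0.39 from ZT6 to ZT18 and -0.32 from ZT0 to ZT12, against 0.00 in both for all genes tested.

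**Figure D2:**
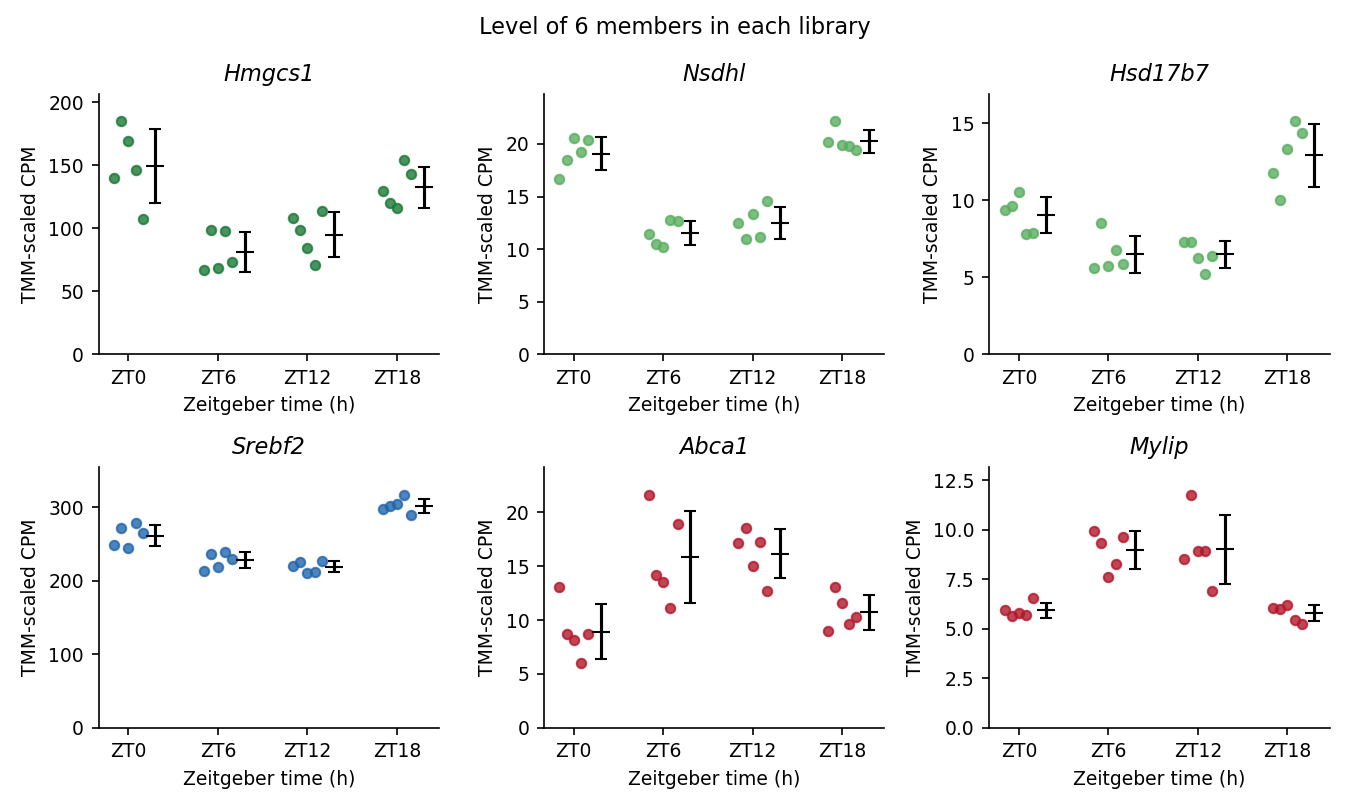
TMM-scaled CPM of 6 members in each library by Zeitgeber time, with points for animals and bars for the mean ± SD (n = 5). Nsdhl stood at 16.7 to 22.1 CPM at ZT0 and ZT18 and at 10.2 to 14.6 at ZT6 and ZT12, and Mylip at 5.27 to 6.57 and 6.93 to 11.8 CPM in the same pairs of times.

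Of the regulators of SREBP2, 3 of 4 changed over the day. Srebf2, which encodes SREBP2 and is itself one of its targets, read 248, 271, 244, 278 and 265 CPM in the 5 ZT0 libraries, 213, 236, 219, 239 and 230.0 at ZT6, 220.1, 226, 211, 212 and 226 at ZT12 and 297, 301, 304, 317 and 289 at ZT18. The ZT18 libraries were above those of ZT0, which were above those of ZT6 and ZT12, and only ZT6 and ZT12 met. Means were 228 ± 11.1 CPM at ZT6 and 302 ± 9.99 at ZT18 (SD, n = 5), a log2 fold change of 0.41 ± 0.05 (SE, edgeR adjusted p = 8.55e-08). Srebf2 had a log2 change from ZT0 to ZT12 of -0.25 ± 0.05 (SE, edgeR adjusted p = 0.000232). Both calls were kept in all fits that left out 1 library.

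Insig1, which encodes a protein that holds SCAP back, gave 454, 489.6, 488, 529.6 and 507 CPM at ZT0, 411, 437, 423, 457 and 465 CPM at ZT6, 483, 446, 417, 379 and 443 CPM at ZT12 and 533, 493, 520.4, 557 and 536 CPM at ZT18. ZT18 lay above ZT6 and ZT12 in every library, and ZT0 overlapped all other times. From ZT6 to ZT18 the log2 change of Insig1 was 0.27 ± 0.05 (SE, edgeR adjusted p = 0.000304) and that from ZT0 to ZT12 was -0.19 ± 0.05 (SE, edgeR adjusted p = 0.0167). Its close relative Insig2 had levels of 16.6, 15.04, 19.1, 16.5 and 16.5 CPM in the ZT0 animals, 17.3, 16.3, 19.1, 16.8 and 18.3 at ZT6, 18.4, 16.6, 15.2, 15.5 and 15.7 at ZT12 and 19.5, 16.01, 17.1, 17.5 and 19.99 at ZT18. The 4 times of Insig2 lay within one another, with a log2 change from ZT6 to ZT18 of 0.04 ± 0.08 (SE, edgeR adjusted p = 0.795). Scap, the escort that carries SREBP2, moved against Srebf2: it ranged from 89.6 to 107 CPM at ZT6 and from 75.4 to 81.5 at ZT18. All ZT6 libraries lay above all of ZT12 and ZT18, with a log2 change from ZT6 to ZT18 of -0.30 ± 0.05 (SE, edgeR adjusted p = 6.45e-05). It was the only member called between ZT6 and ZT12, with a log2 change from ZT6 to ZT12 of -0.23 ± 0.05 (SE, edgeR adjusted p = 0.00336).

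The deposited FPKM divide the counts of each gene by a length, and these lengths were not checked against transcripts. The order of genes therefore rests on them: Scap averaged 84.7 CPM and 82.3 FPKM, and Srebf2 252 CPM and 50.7 FPKM. Insig1 had the highest FPKM of the 31 members at 274 ± 31.4 (SD over all 20 libraries). It was followed by Scap at 82.3 ± 10.5, the receptor Nr1h2 at 60.95 ± 7.03, Cyp51 at 51.2 ± 10.03 and Srebf2 at 50.7 ± 8.01. From Nr1h2 to Srebf2 these neighbours differed by about as much as their spread over the libraries. Insig2 stood at 21.9 ± 2.11 FPKM, far under Insig1. At the other end were Mylip at 2.42 ± 0.57 FPKM, Abca1 at 2.33 ± 0.73, Soat1 at 2.11 ± 0.36, Nr1h3 at 0.53 ± 0.26 and Abcg1 at 0.33 ± 0.20. The 3 LXR-driven genes had lower mean FPKM than every enzyme, the lowest of which was Acat2 at 2.47 ± 0.74 FPKM. Mylip, Abca1 and Acat2 did not differ beyond their spread.

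Among genes of sterol transport and storage, only Stard4 was called over the day. Stard4, a soluble carrier of cholesterol between membranes, read 23.1, 24.3, 27.0, 20.4 and 23.4 CPM in the 5 ZT0 libraries, 18.96, 21.8, 16.6, 20.2 and 18.1 at ZT6, 21.7, 24.2, 19.9, 19.2 and 20.8 at ZT12 and 25.2, 23.9, 24.2, 24.4 and 24.3 at ZT18. ZT18 lay above ZT6 in every library and overlapped ZT0 and ZT12. The log2 change of Stard4 from ZT6 to ZT18 was 0.35 ± 0.07 (SE, edgeR adjusted p = 0.00105) and that from ZT0 to ZT6 was -0.30 ± 0.07 (SE, edgeR adjusted p = 0.00383). The first of these calls was lost with library totals (adjusted p = 0.015) and with limma on FPKM (0.0267). Npc1, the lysosomal membrane protein that releases cholesterol taken up with lipoproteins, gave 19.8, 18.6, 23.2, 18.8 and 21.8 CPM at ZT0, 24.6, 20.5, 25.4, 22.6 and 24.3 CPM at ZT6, 24.5, 23.3, 23.4, 20.8 and 23.5 CPM at ZT12 and 26.9, 26.4, 22.3, 23.3 and 21.8 CPM at ZT18. Its mean was lowest at ZT0, and the times overlapped, with a log2 change from ZT18 to ZT0 of -0.24 ± 0.07 (SE, edgeR adjusted p = 0.0267). Its partner in the lysosome, Npc2, lay between 100.2 and 122 CPM, with a log2 change from ZT6 to ZT18 of -0.00 ± 0.05 (SE, edgeR adjusted p = 0.987), and Soat1, which esterifies cholesterol for storage, between 3.45 and 5.49 CPM, with a log2 change from ZT6 to ZT18 of 0.00 ± 0.14 (SE, edgeR adjusted p = 0.991).

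Neither LXR receptor was called over the day. Nr1h2, which encodes LXR beta, had levels of 75.1, 82.5, 74.0, 82.7 and 79.0 CPM in the ZT0 animals, 80.3, 71.4, 73.2, 70.1 and 72.4 at ZT6, 69.4, 61.3, 69.4, 74.9 and 67.5 at ZT12 and 74.7, 70.3, 76.6, 76.5 and 72.6 at ZT18. Its ZT12 libraries were low beside ZT0 and met them only at the margin, with a log2 change from ZT0 to ZT12 of -0.20 ± 0.05 (SE, edgeR adjusted p = 0.014), a change called with DESeq2 (adjusted p = 0.00486), library totals (0.000639) and limma on FPKM (0.00415). Nr1h3, which encodes LXR alpha, read 1.40, 0.223, 1.11, 1.03 and 1.27 CPM in the 5 ZT0 libraries, 0.586, 0.842, 0.837, 0.496 and 0.392 at ZT6, 1.36, 0.7104, 0.977, 0.892 and 0.747 at ZT12 and 0.828, 0.858, 0.499, 0.027 and 0.386 at ZT18. At 1 to 69 counts per library its values were too few to order the times, with a log2 change from ZT6 to ZT18 of -0.26 ± 0.46 (SE, edgeR adjusted p = 0.778).

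The called LXR-driven genes had their higher means at ZT6 and ZT12 and their lower means at ZT18 and ZT0. Mylip, the ligase also known as IDOL, gave 5.95, 5.63, 5.82, 5.72 and 6.57 CPM at ZT0, 9.93, 9.32, 7.64, 8.29 and 9.64 CPM at ZT6, 8.55, 11.8, 8.95, 8.92 and 6.93 CPM at ZT12 and 6.07, 6.003, 6.22, 5.45 and 5.27 CPM at ZT18. All 10 libraries of ZT6 and ZT12 lay above all 10 of ZT0 and ZT18. Mylip had a log2 change from ZT6 to ZT18 of -0.63 ± 0.11 (SE, edgeR adjusted p = 0.000116), a fall, and that from ZT0 to ZT12 was 0.60 ± 0.11 (SE, edgeR adjusted p = 0.00035), a rise. Its call over the 4 times was kept in each of 30 fits, with edgeR, DESeq2 or limma adjusted p from 2.59e-10 to 0.00112.

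Abca1, the exporter that loads cholesterol onto apolipoproteins, had levels of 13.1, 8.68, 8.13, 6.0001 and 8.72 CPM in the ZT0 animals, 21.6, 14.2, 13.5, 11.1 and 18.9 at ZT6, 17.2, 18.6, 15.1, 17.3 and 12.7 at ZT12 and 8.95, 13.1, 11.6, 9.63 and 10.3 at ZT18. ZT0 and ZT12 met through ZT0 replicate 1, and ZT6 overlapped every other time. Means were 8.92 ± 2.58, 15.9 ± 4.29, 16.2 ± 2.30 and 10.7 ± 1.64 CPM (SD, n = 5) at ZT0, ZT6, ZT12 and ZT18. It was called over the 4 times (adjusted p = 0.00592) and from ZT0 to ZT6, with a log2 change from ZT0 to ZT6 of 0.83 ± 0.20 (SE, edgeR adjusted p = 0.00875), but in neither 12-hour comparison, with a log2 change from ZT6 to ZT18 of -0.57 ± 0.20 (SE, edgeR adjusted p = 0.0675) and from ZT0 to ZT12 of 0.85 ± 0.20 (SE, edgeR adjusted p = 0.013). The latter was called with DESeq2 (adjusted p = 0.000829). The call over the 4 times held in 17 of 30 fits. Leaving out any of 9 libraries ended it (ZT0 replicates 2, 3 and 5, ZT6 replicate 5, ZT12 replicates 1, 2 and 4 and ZT18 replicates 4 and 5; adjusted p from 0.0106 to 0.0148), as did library totals (adjusted p = 0.0276), no filter on low counts (0.0102), limma on FPKM (0.0154) and leaving out the 3 libraries highest in heat shock (0.0112).

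Abcg1, the exporter to mature lipoproteins, read 0.751, 1.02, 0.718, 0.462 and 0.278 CPM in the 5 ZT0 libraries, 1.87, 1.47, 0.702, 0.754 and 0.33 at ZT6, 0.83, 1.20, 0.977, 1.54 and 0.412 at ZT12 and 0.23, 0.682, 0.656, 0.459 and 0.276 at ZT18. At 10 to 107 counts per library the times overlapped in both 12-hour comparisons, with a log2 change from ZT6 to ZT18 of -1.15 ± 0.43 (SE, edgeR adjusted p = 0.0646) and from ZT0 to ZT12 of 0.62 ± 0.41 (SE, edgeR adjusted p = 0.425). It was not called at any time, so of the 3 LXR-driven genes 2 were called and all had a negative estimate from ZT6 to ZT18 and a positive one from ZT0 to ZT12. Their median log2 change was -0.63 and 0.62 in these comparisons.

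Abca1 is also known from macrophages, and 12 macrophage and dendritic cell markers summed to 95.8 to 132 CPM at ZT0, 82.0 to 127 at ZT6, 111 to 128 at ZT12 and 91.4 to 106 at ZT18. All 12 passed the filter on low counts, with Csf1r at 12.6 to 23.5 CPM. Medians of the sum were 128, 100, 121 and 92.0 CPM at ZT0, ZT6, ZT12 and ZT18. Means of Abca1 at these times were 8.92, 15.9, 16.2 and 10.7 CPM. Without the 3 libraries with the most of these markers, all of them from ZT0, which left 2 libraries at that time, Abca1 was still called over the 4 times (edgeR adjusted p = 0.00701) and Mylip as well (adjusted p = 3.25e-05), but the fall of members from ZT0 to ZT12 was called in 3 genes in place of 7, and in that comparison Mylip missed the threshold (adjusted p = 0.0107). That fit kept every library of ZT6 and ZT12, so it does not bear on these cells at those times. The part of these cells in the levels of Abca1 was not tested.

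**Figure D3:**
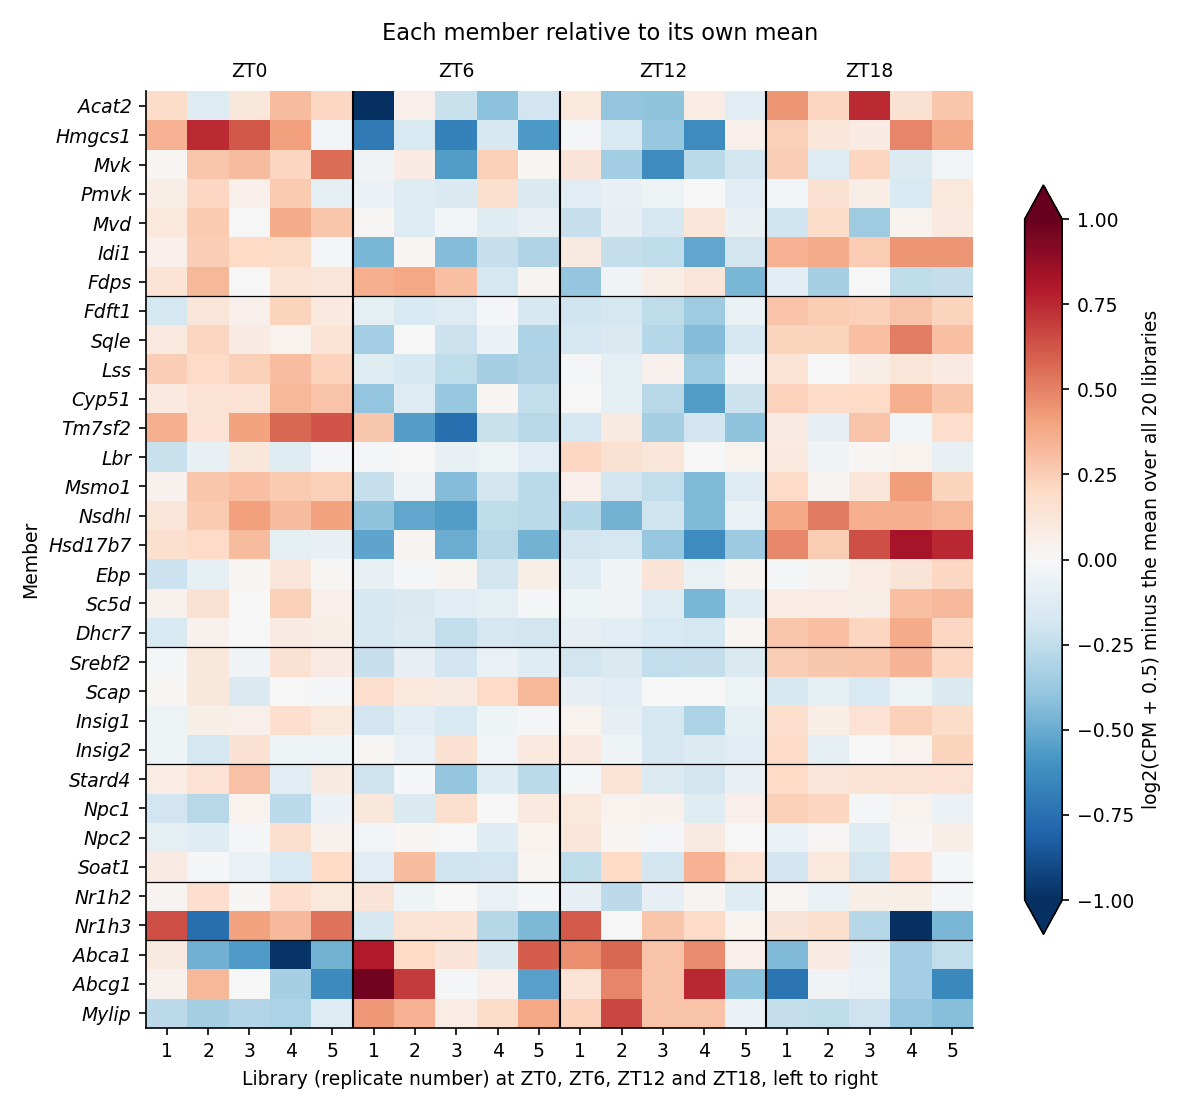
Log2(CPM + 0.5) of the 31 members and Sqle in each of the 20 libraries minus the gene's mean over all libraries, with rows ordered by role and columns by Zeitgeber time. The enzymes are mostly above their mean at ZT0 and ZT18 and below it at ZT6 and ZT12, and Abca1 and Mylip mostly the reverse.

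Placed side by side, the 18 enzymes and the 3 LXR-driven genes were high in opposite pairs of times. Per library, the mean log2 deviation of the enzymes from their own means ran from 0.07 to 0.23 at ZT0 and from 0.12 to 0.21 at ZT18, and from -0.29 to -0.09 at ZT6 and from -0.26 to -0.07 at ZT12. That of Abca1, Abcg1 and Mylip ran from -0.54 to -0.04 at ZT0 and from -0.47 to -0.07 at ZT18, from 0.03 to 0.73 at ZT6 and from -0.14 to 0.58 at ZT12. ZT12 replicate 5 was the only one of these 10 libraries in which the LXR-driven genes were below their mean. In summed CPM the enzymes averaged 581 ± 37.5, 436 ± 30.2, 457 ± 40.6 and 587 ± 31.1 (SD, n = 5) at ZT0, ZT6, ZT12 and ZT18, and the LXR-driven genes 15.5 ± 2.74, 25.9 ± 5.38, 26.2 ± 4.19 and 17.0 ± 2.02. Both scores come from the same libraries, so their opposition across libraries is given as a description.

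**Figure D4:**
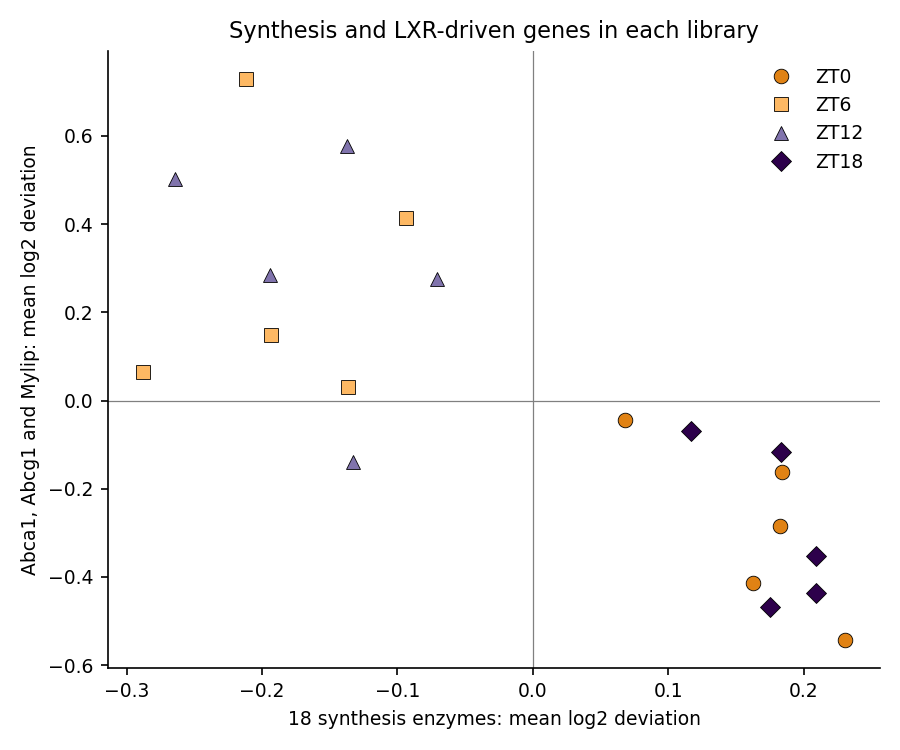
Mean log2 deviation of the 18 enzymes of synthesis (horizontal) and of Abca1, Abcg1 and Mylip (vertical) in each of the 20 libraries, coloured by Zeitgeber time. All ZT0 and ZT18 libraries lie at the lower right, and all ZT6 and ZT12 libraries at the left, 1 of them (ZT12 replicate 5, at -0.14 on the vertical axis) below 0.

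Over the 6-hour steps, more members were called between ZT0 and ZT6 and between ZT12 and ZT18 than in the other steps. From ZT0 to ZT6, 10 members fell and 3 rose (4.13% and 4.65% of all genes), with 8 enzymes, Srebf2 and Stard4 among the first and Abca1, Mylip and Scap the others. Between ZT6 and ZT12, Scap alone was called (2.34% of all genes were higher and 2.24% lower), a call lost without ZT6 replicate 5, ZT12 replicate 1 or ZT12 replicate 2, and the enzymes had a median log2 change of 0.03. From ZT12 to ZT18, 10 rose and 1, Mylip, fell (4.80% and 5.14%), the 10 being 8 enzymes with Srebf2 and Insig1. From ZT18 to ZT0, 3 were lower, namely Dhcr7, Hsd17b7 and Srebf2 (4.19% of all genes were lower and 3.38% higher), and none of these 3 calls held with library totals, with limma on FPKM or without the 3 ZT0 libraries highest in macrophage markers. The 5 libraries of each time did not overlap in 1 higher and 7 lower members from ZT0 to ZT6 (5.41% and 4.84% of all genes) and in 1 of each from ZT6 to ZT12 (4.05% and 3.91%). They did not overlap in 11 higher and 1 lower from ZT12 to ZT18 (5.96% and 6.68%), and in 2 and 3 from ZT18 to ZT0 (4.29% and 5.79%). Neighbouring steps share the libraries of a time.

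A cosine of 24 hours in place of the 4 times called 18 members, against 7.12% of all genes. Fitted peaks of the 12 called enzymes fell between 18.9 and 22.0 h (median 20.6 h), in the dark phase, with peak-to-trough folds from 1.30 (Sc5d) to 2.15 (Hsd17b7). Srebf2 peaked at 20.1 h (1.39-fold), Insig1 at 20.3 h (1.25-fold) and Stard4 at 19.6 h (1.31-fold). Mylip peaked at 8.92 h (1.83-fold), Abca1 at 9.75 h (2.03-fold) and Scap at 5.52 h (1.24-fold). With samples at 4 times only, the peak hours are interpolations of a fixed shape.

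**Figure D5:**
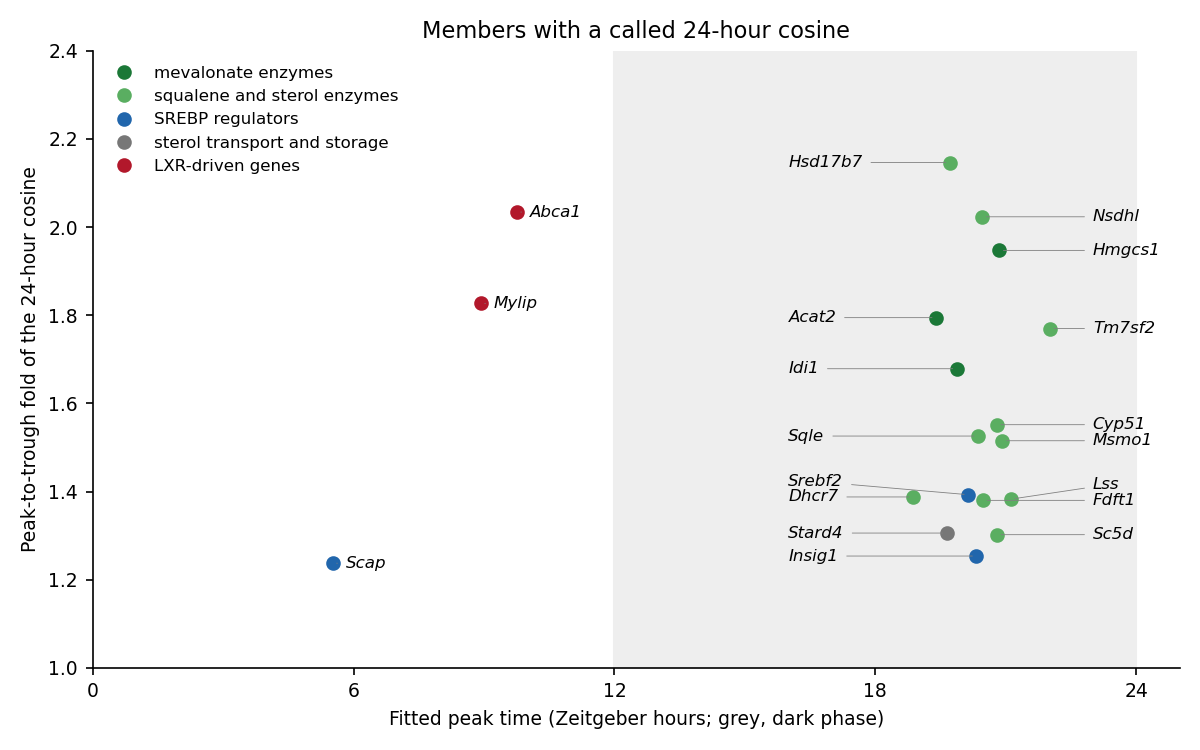
Fitted peak time (hours, horizontal) and peak-to-trough fold (vertical) of the 18 members with a called 24-hour cosine and of Sqle, coloured by role, with the dark phase in grey. The enzymes, Srebf2, Insig1 and Stard4 gather between 18.9 and 22.0 h, and Scap, Mylip and Abca1 lie between 5.52 and 9.75 h.

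The stretches upstream of genes that moved in each direction are shown because the factor SREBP2 is known to act with the factor NF-Y, and LXR on direct repeats, at sites in such promoters. The RefSeq table of windows from 250 bases before to 50 after each start (GRCm38.p6) held 26 of the 31 members. For 5 of these, chosen for their changes and motifs after both were seen, the 250 bases before the start are printed 5′ to 3′ on the gene's strand. The capitals mark the sterol element TCACNCCAC (Hmgcs1 only), the NF-Y box CCAAT, which reads ATTGG on the other strand, or the LXR direct repeat (Abca1 only), sought as GGTNA followed after 5 bases by GGTNA again.
Hmgcs1: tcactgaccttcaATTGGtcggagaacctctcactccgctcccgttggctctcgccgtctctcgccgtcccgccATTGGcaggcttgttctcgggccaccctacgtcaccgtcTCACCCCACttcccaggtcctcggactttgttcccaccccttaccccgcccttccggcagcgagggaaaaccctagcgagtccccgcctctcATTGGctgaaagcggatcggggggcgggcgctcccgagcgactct
Nsdhl: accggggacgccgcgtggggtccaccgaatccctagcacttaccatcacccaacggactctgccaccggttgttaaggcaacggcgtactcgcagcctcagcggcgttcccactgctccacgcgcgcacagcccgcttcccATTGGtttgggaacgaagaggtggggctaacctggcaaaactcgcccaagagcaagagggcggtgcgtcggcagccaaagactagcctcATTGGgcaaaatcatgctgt
Hsd17b7: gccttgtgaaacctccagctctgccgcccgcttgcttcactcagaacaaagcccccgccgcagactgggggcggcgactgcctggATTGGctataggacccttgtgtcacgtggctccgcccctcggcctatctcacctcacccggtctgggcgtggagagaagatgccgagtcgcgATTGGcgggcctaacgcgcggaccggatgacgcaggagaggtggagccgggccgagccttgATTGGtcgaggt
Abca1: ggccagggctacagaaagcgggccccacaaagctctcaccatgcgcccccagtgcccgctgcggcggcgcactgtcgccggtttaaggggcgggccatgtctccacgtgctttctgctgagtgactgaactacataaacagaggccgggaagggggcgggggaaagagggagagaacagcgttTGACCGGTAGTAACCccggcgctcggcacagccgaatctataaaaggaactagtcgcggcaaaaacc
Mylip: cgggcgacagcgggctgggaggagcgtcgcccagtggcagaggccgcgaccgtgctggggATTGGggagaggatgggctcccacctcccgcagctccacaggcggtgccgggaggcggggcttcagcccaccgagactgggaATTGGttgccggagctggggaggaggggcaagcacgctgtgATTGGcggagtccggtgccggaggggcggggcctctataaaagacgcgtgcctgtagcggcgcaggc

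Hmgcs1 (chr13:119690101-119690350) was the 1 of 26 genes with the sterol element, at positions -137 to -129, next to 3 NF-Y boxes before the start. That element, sought on both strands, was in 1.24% of all 32851 promoter windows and 1.44% of genes with a window. The NF-Y box was in 21 of the 26 genes, against 37.4% of windows and 41.1% of genes with a window. It was in 15 of 16 enzymes, 10 of the 11 called and 5 of the 5 not called, so its presence did not separate called enzymes from the others. Nsdhl (chrX:72918271-72918520) had 2 boxes before the start and Hsd17b7 (chr1:169969206-169969455) had 3. Mylip (chr13:45389492-45389741), which ran the other way, also had 3. Hmgcs1, Nsdhl and Mylip lie on the plus strand, and Hsd17b7 and Abca1 on the minus strand.

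The direct repeat was in 1 of 26 genes, Abca1 (chr4:53159896-53160145), on the opposite strand at positions -67 to -53, against 0.718% of windows and 0.818% of genes. The E-box CACGTG, the site of the clock factors CLOCK and BMAL1 among others, was in 6 of the 26 (Abca1, Dhcr7, Hsd17b7, Insig1, Sc5d and Scap), against 7.15% of windows and 8.09% of genes. The E-boxes are not in capitals, and the NF-Y box and the repeat do not overlap in the stretches shown. A match to these letters is a description of the sequence, not a bound site.

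Library totals ran from 35.6 M to 68.0 M counts, of which immunoglobulin genes took 52.6 to 62.3%. Plasma cell markers were abundant in each library, with Jchain at 45595 to 62145 CPM and Sdc1, which encodes CD138, at 693 to 862. Paneth and goblet cell markers summed to 2.65 to 71.7 CPM, highest in ZT6 replicate 4, and enterocyte markers to 43.6 to 84.1 CPM, most of it Epcam. Defining markers of T cells (Cd3e) and mature B cells (Ms4a1) were at or below 0.418 and 1.33 CPM. Heat shock genes ranged from 744 to 6968 CPM in sum, with medians of 1399, 1416, 3333 and 2281 CPM at ZT0, ZT6, ZT12 and ZT18. Most called enzymes were low at ZT6 and ZT12 and high at ZT0 and ZT18. Without the 3 libraries highest in heat shock, 4 members in place of 7 were lower at ZT12 than at ZT0, Nsdhl (edgeR adjusted p = 2.33e-05) and Srebf2 (adjusted p = 0.00309) still among the genes called, and the part of heat shock in these values was not tested.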

How the data were processed

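The authors sequenced poly-A RNA of sorted IgA+ PC and deposited a table of raw counts per Ensembl gene and a table of FPKM. Aligner, genome build and the use of strand in counting were not given in the sources used here. Libraries held 35.6 M to 68.0 M counts, 14.0 M to 29.4 M of them outside immunoglobulin genes. Counts were fitted with edgeR 4.0.16 (R 4.3.3) after its filter on low counts (13967 of 47069 genes tested) and TMM scaling, with the 4 times as groups and quasi-likelihood tests. P-values were Benjamini-Hochberg adjusted over all tested genes, and a gene was called under 0.01. A 24-hour cosine was fitted in place of the groups. Alternatives were library totals, genes other than immunoglobulin, DESeq2 1.42.0, no filter, limma 3.58.1 on log2(FPKM + 0.1) for genes with a mean of at least 0.5 FPKM, a replicate block, each library left out, and 3 libraries left out by marker level. Overlaps between transcripts were sought with BLAST 2.17.0, and the scripts were tested on simulated data. The genes and lists were chosen with earlier results of these data known. Genes given in every library were the SREBP2 and LXR regulators and targets and those with the lowest p over the 4 times in each role. Some genes of the wider pathway lists are not reported here.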

Additional observations from a re-analysis of the deposited data

Results flagged for a closer look

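In groups of 5 libraries, a library whose gap to its nearest neighbour exceeded 0.71 of the group's range was looked at again. This was done for 128 groups, of which 5 met the criterion, and chance gives about 1 in 20 groups. They were Pmvk in ZT6 replicate 4 at 14.0 CPM, Sqle in ZT18 replicate 4 at 85.6 CPM, Msmo1 in ZT0 replicate 1 at 35.1 CPM, Nsdhl in ZT18 replicate 2 at 22.1 CPM and Sc5d in ZT12 replicate 4 at 24.3 CPM. Those of Pmvk, Sqle and Nsdhl were the highest of their group and the others the lowest.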

How the results depend on the processing

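Calls over the 4 times and from ZT6 to ZT18 stayed within 1.5 times of their counts in every alternative. Counts from ZT0 to ZT12 did not: lower members numbered 17 with library totals, 16 with limma on FPKM, 12 with DESeq2, 3 without the 3 libraries highest in macrophage markers, 4 without those highest in heat shock and 4 to 10 with 1 library left out (4 without ZT0 replicate 4). Higher members there numbered 0 with library totals, FPKM and without the macrophage marker libraries, 2 with DESeq2 and 1 to 2 with 1 library left out. The median of the enzymes in that comparison was -0.49 with library totals and with FPKM and -0.41 without the macrophage marker libraries. Without the latter, 8 members in place of 13 were called from ZT0 to ZT6. From ZT6 to ZT12 the count was 0 with no filter and without the epithelial marker or heat shock libraries, 2 with FPKM and 0 to 1 with 1 library left out. From ZT18 to ZT0 it was 0 with library totals, FPKM and without the macrophage marker libraries. The cause of these shifts was not tested.

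The replicate numbers did not pair the libraries (correlations of same-numbered deviations from -0.117 to 0.0762, and 4 libraries correlated best with their own number). With the replicate block, 4 members were lower and 2 higher from ZT0 to ZT12, and 18 were called over the 4 times.

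Signs turned only in genes without a call. From ZT6 to ZT18, with library totals, FPKM and without the heat shock libraries in turn, Mvd was -0.0077, -0.019 and -0.034 and Soat1 -0.039, -0.025 and -0.038. Nr1h2 was -0.025 with library totals and with FPKM and -0.015 without the epithelial libraries, and Insig2 -0.00099 with FPKM. From ZT0 to ZT12, with library totals and FPKM in turn, Lbr was -0.0023 and -0.00067, Ebp -0.14 and -0.15, Npc2 -0.11 and -0.12 and Soat1 -0.10 and -0.12. Without the macrophage libraries Ebp was -0.035, Insig2 0.040 and Nr1h3 0.59. Without the heat shock libraries Insig2 was 0.0017, Soat1 -0.094 and Nr1h3 0.021. With 1 library left out, the ranges from ZT6 to ZT18 were -0.041 to 0.15 for Mvk, -0.034 to 0.11 for Mvd, -0.0023 to 0.077 for Npc1, -0.032 to 0.023 for Npc2, -0.052 to 0.12 for Soat1, -0.0086 to 0.048 for Nr1h2 and -0.52 to 0.039 for Nr1h3. From ZT0 to ZT12 they were -0.034 to 0.060 for Ebp, -0.088 to 0.012 for Insig2, -0.027 to 0.14 for Soat1 and -0.36 to 0.043 for Nr1h3. Depth limits Nr1h3 and Abcg1 most.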

Other observations

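Further genes of the pathway, in lists that overlap none of the 31, are given here as counts. Of 69 such genes, 60 passed the filter on low counts and 19 were called over the 4 times, where 19.5% of all genes were called. From ZT6 to ZT18, 3 were higher and 4 lower (4.05% and 4.20% of all genes), and from ZT0 to ZT12, 2 were higher and 2 lower (1.96% and 1.90%). The isoprenoid branch, which uses the same precursors for other products, included the called dolichol enzyme Dhdds (edgeR adjusted p over the 4 times 0.00061).

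Genes of SREBP processing and of sterol-regulated degradation in the endoplasmic reticulum had 5 calls of 17, against 19.5% of all genes. Rnf145, a ubiquitin ligase, averaged 25.2 and 24.7 CPM at ZT0 and ZT12 against 18.7 CPM at ZT6 (edgeR adjusted p over the 4 times 9.12e-06). Sec23a, of the coat that leaves the endoplasmic reticulum, was called as well (adjusted p = 2.62e-05). Ubxn4 rose from ZT6 to ZT18 by 0.24 ± 0.05 (log2, SE, edgeR adjusted p = 0.000779). Srebf1, the relative of Srebf2, rose in the same comparison by 0.28 ± 0.05 (edgeR adjusted p = 0.000283).

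Other genes of sterol transport and storage had 9 calls of 21 tested, against 19.5% of all genes. The lysosomal membrane proteins Lamp1 and Lamp2 rose from ZT0 to ZT12, with log2 changes of 0.47 ± 0.10 and 0.33 ± 0.05 (SE, edgeR adjusted p = 0.00308 and 5.99e-05), and Lamp1 fell from ZT6 to ZT18 (-0.52 ± 0.10, adjusted p = 0.000671). Lrp8, a lipoprotein receptor, rose from ZT6 to ZT18 (0.79 ± 0.14, edgeR adjusted p = 0.000128). Soat2, which esterifies cholesterol, was lower at ZT18 than at ZT6 (-0.38 ± 0.09, edgeR adjusted p = 0.00339), and the sterol transporter Gramd1a lower at ZT12 than at ZT0 (-0.34 ± 0.06, adjusted p = 0.000121). Srebf1, Lrp8, Soat2 and Gramd1a were chosen for mention after their values were seen.

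Among other LXR partners and targets 3 of 11 tested were called, against 19.5% of all genes. Smpdl3a fell from ZT6 to ZT18 (-0.43 ± 0.08, SE, edgeR adjusted p = 0.000115), with a log2 change of 0.29 ± 0.08 from ZT0 to ZT12 (adjusted p = 0.0132). The partner receptor Rxrb fell from ZT6 to ZT18 (-0.24 ± 0.07, edgeR adjusted p = 0.00979). Abca7, a transporter related to Abca1, moved the other way, lower at ZT12 than at ZT0 (-0.31 ± 0.07, edgeR adjusted p = 0.00382). Lpcat3, Pltp and Arl4c of this list were not called over the 4 times (edgeR adjusted p = 0.0754, 0.739 and 0.0211). Their log2 changes from ZT6 to ZT18 were 0.22 ± 0.08, -0.19 ± 0.17 and -0.14 ± 0.16 (SE). The course of Abca1 and Mylip was thus not shared by the whole list.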
